A study of Mus musculus with 6 samples.

Results

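A set of 10 genes of nucleoside breakdown and uptake was followed in ileum, the last stretch of the small intestine, of wild type mice and of mice lacking Toll-like receptor 4 (Tlr4, the sensor of bacterial lipopolysaccharide) in intestinal epithelial cells, called TLR4ΔIEC. The 10 genes (Nt5e, Slc28a1, Slc28a2, Ada, Pnp, Xdh, Adk, Cda, Upp1 and Tymp) were taken by symbol from 21950 symbols listed for both genotypes. They were chosen by function with their ratios between the genotypes in these files already known, so those ratios are a description of the set and support nothing. All mice were C57BL/6 and 24 weeks old, with 3 mice in each genotype. The sources used here name neither the Cre driver nor the deleted part of Tlr4. RNA of each mouse was made into a whole-transcriptome library after ribosomal RNA depletion, but the deposited values are 1 column of average coverage (reads per base of a transcript entry) per genotype, shared by its 3 mice. No spread between mice can be given, no test was possible, and every difference below is one between 2 pooled columns. Each genotype also had its own sequencing pool, and the effects of genotype and pool cannot be told apart.

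Nucleosides reach the gut lumen from digested nucleic acids and from nucleotides released by cells. At the cell surface, phosphatases strip nucleotides down to nucleosides, concentrative transporters of the Slc28 family carry these into the enterocyte with sodium, and cytosolic deaminases and phosphorylases break them down to bases, which xanthine dehydrogenase or the pyrimidine reductive pathway degrade further. In mouse small intestine, Ada, Nt5e and Slc28a2 are known for high expression at the tip of the villus, where enterocytes end their life. Whole ileum was sampled, so the position of a transcript along the villus was not measured, and fewer cells of a type and less RNA per cell cannot be told apart.

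The wild type column held 22724 transcript entries and the TLR4ΔIEC column 22687, with median coverages of 1.57 and 1.70 and summed coverages of 699800 and 698473. Tlr4 itself stood at 1.98 in wild type against 1.60, which checks the genotype only weakly, since other cells of whole ileum keep the gene. As a check of the tissue, the ileal bile acid binding protein Fabp6 stood at 10471 in wild type and 9750 in TLR4ΔIEC, and Gata4, a transcription factor of the upper small intestine, at 0.31 in both. The region lists these genes come from are given further on. The enterocyte structural gene Vil1 stood at 402 and 418.

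In the TLR4ΔIEC column, 5 of the 10 genes lay lower by 2-fold or more, 1 lay higher by 2-fold or more, 3 lay within 2-fold and 1 was too weakly covered to be counted. The lower genes were the surface enzyme Nt5e, the transporter Slc28a2, the deaminases Ada and Cda, and the phosphorylase Tymp. The higher one was the uridine phosphorylase Upp1. Ratios were taken after the columns were brought to 1 scale by their median ratio (a factor of 1.05) and to a total of 1000000 units, with 1 unit added to each value, and genes were counted where the mean of both columns was at least 5 units (coverages of 3.41 and 3.58 in the wild type and TLR4ΔIEC columns). Over all 8888 genes counted, 2.79% (248 genes) lay lower by 2-fold or more and 1.29% (115 genes) higher. Scaling by totals that leave out the 50 highest genes gave 188 lower and 155 higher. The median log2 ratio was -1.23 over the 9 counted genes and 0.03 over all genes counted, and the choice of the genes fixed much of this contrast. In deposited coverage the 10 genes together summed to 417 in wild type and 365 in TLR4ΔIEC.

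**Figure D1:**
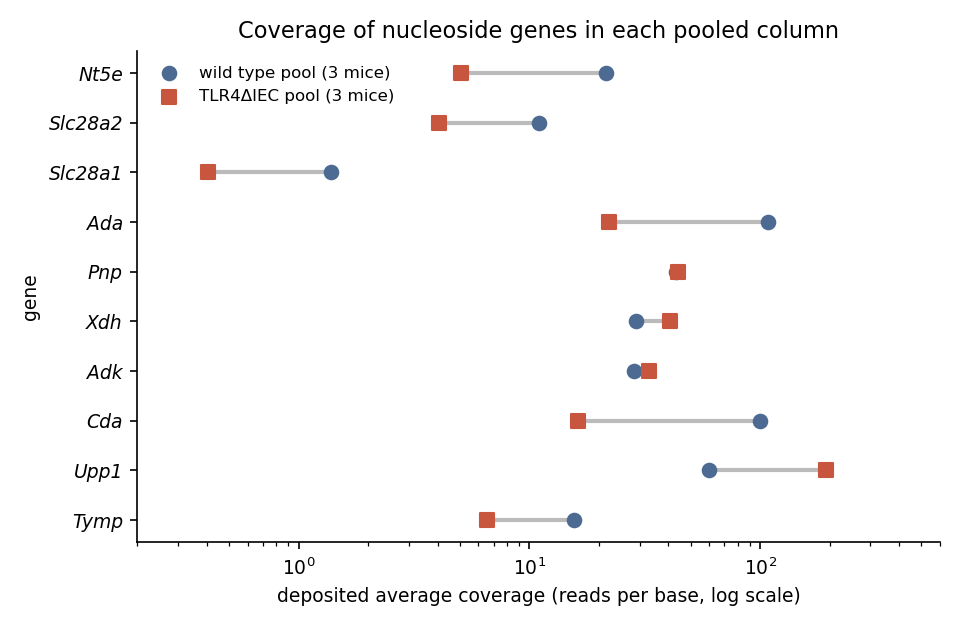
Deposited average coverage (reads per base, log scale) of the 10 genes in the wild type pooled column (circles) and the TLR4ΔIEC pooled column (squares), 1 value per column and no error bars because mice were pooled. Coverage of Ada goes from 108 to 22.2 and that of Cda from 99.5 to 16.3, while Upp1 goes from 60.1 to 193 and the symbols of Pnp nearly coincide.

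Promoter sequence was read for 3 of these genes that differed by 2-fold, Ada and Slc28a2 as lower genes and Upp1 as the higher one, from the RefSeq table of mouse promoters (GRCm38.p6). Such windows were found for 9 of the 10 genes. Each stretch runs 5′ to 3′ on the strand of its gene and is the window of 250 bases before the start, cut where an annotated gene model begins. That cut leaves out the last 78 bases for Slc28a2 and 0 for Ada and Upp1. For Cda, Nt5e, Pnp and Slc28a1 it leaves 0 bases, since their windows lie wholly past an annotated start. Those windows are not shown but are counted among the 9 below. Capitals mark matches, on either strand, to any of 6 short motifs, and a match is a description of letters, not a site.

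Ada (chr2:163750240-163750489, minus strand): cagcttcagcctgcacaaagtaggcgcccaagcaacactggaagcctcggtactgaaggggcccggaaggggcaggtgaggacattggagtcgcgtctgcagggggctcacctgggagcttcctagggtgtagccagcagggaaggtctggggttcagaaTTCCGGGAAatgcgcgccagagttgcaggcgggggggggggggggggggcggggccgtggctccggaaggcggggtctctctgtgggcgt

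Slc28a2 (chr2:122426185-122426356, plus strand): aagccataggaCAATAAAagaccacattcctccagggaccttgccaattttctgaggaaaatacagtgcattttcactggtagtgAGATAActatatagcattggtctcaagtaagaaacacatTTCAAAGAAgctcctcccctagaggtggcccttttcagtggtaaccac

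Upp1 (chr11:9117758-9118007, plus strand): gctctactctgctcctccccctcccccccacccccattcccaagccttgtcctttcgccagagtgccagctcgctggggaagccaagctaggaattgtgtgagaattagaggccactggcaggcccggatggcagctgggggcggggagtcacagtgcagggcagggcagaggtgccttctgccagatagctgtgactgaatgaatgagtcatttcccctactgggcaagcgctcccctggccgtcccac

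The motifs were CAAAGTCCA for HNF4, TTTATNG for CDX2, AGATAA for GATA factors, GAAANNGAA for interferon regulatory factors, TTCNNNGAA for STAT factors and TATAAA for the TATA box, and no match overlapped another. They were searched in the whole 250 bases before the start, and 0 matches reached the 78 bases of Slc28a2 that are not shown. Slc28a2 held a CDX2 match, a GATA match and a STAT match, and Ada held a STAT match from base 90 to base 82 before the start. Upp1 had no match to any of them in the window shown. Among all 32851 windows of this length, 9.81% held the CDX2 motif, 9.99% the GATA motif and 7.02% the STAT motif, against 1, 1 and 2 of the 9 windows of these genes. The motif of interferon regulatory factors was in 7.13% of all windows and in 1 of the 9, that of Pnp, whose window lies past an annotated start. The HNF4 motif was found in 0.384% and the TATA motif in 12.4% of all windows, and in 0 of the 9. The 3 genes differed in base composition: G and C made up 67.2% of the 250 bases for Ada, 62.4% for Upp1 and 45.2% for Slc28a2, against a median of 52.4% over all windows. Slc28a2 had 0 CpG dinucleotides in its window and Ada had 14.

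Extracellular supply came first. Nt5e (chromosome 9, 88327197 to 88372092, plus strand) encodes CD73, the surface enzyme that turns AMP into adenosine. Its coverage was 21.5 in wild type and 5.04 in TLR4ΔIEC, from 77087 and 18060 bases of reads over the same length of 3580 bases. The log2 ratio of -2.02 made it 4.04-fold lower, the 17th lowest ratio of the 8888 genes. Among the other genes of extracellular nucleotide breakdown, Alpi, the intestinal alkaline phosphatase of the brush border, was also lower, at 99.4 in wild type against 40.2, a log2 ratio of -1.36. Entpd8, a surface enzyme that removes phosphates from nucleotides, was at 29.3 and 21.2 (-0.52). Of the 6 counted genes of this list, Nt5e and Alpi were at least 2-fold lower, 0 were 2-fold higher, and the median was -0.54, or -0.52 without Nt5e. Within the columns, Nt5e stood 5.48-fold above Entpd1, the surface enzyme upstream of it, chosen for that role and at 3.93 and 4.98, in wild type and nearly level with it (1.01-fold) in TLR4ΔIEC. This comparison of coverage per base needs no scaling between the columns. Against Entpd8, which was better covered than Entpd1, Nt5e was the lower of the pair in both columns.

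Uptake genes were unevenly covered. Slc28a2 (chromosome 2, 122426477 to 122461137, plus strand), the concentrative carrier of purine nucleosides and uridine, was at 11.0 in wild type and 4.05 in TLR4ΔIEC, from 43019 and 15800 bases of reads over 3904 bases, a log2 ratio of -1.36. Slc28a1 (chromosome 7, 81114799 to 81170416, plus strand), the carrier of pyrimidine nucleosides, was weakly covered, at 1.38 and 0.406. Its log2 ratio of -0.95 fell short of 2-fold with the added unit, although the deposited coverages differed 3.40-fold. The lengths behind its averages also differed between the columns (2767 and 2302 bases), so its ratio is uncertain. Slc28a2 stood 7.98-fold above Slc28a1 in wild type and 9.96-fold in TLR4ΔIEC, so both carriers were lower and their proportion was similar. Slc28a3, the broad carrier of the family, did not share that direction, at 1.81 in wild type against 3.46 (log2 ratio 0.68, below the level counted and named after its value was seen).

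The equilibrative carrier Slc29a1, which lets nucleosides cross membranes down their gradient, was at 6.63 in wild type against 7.22 (log2 ratio 0.05). Coverage of Slc28a2 relative to Slc29a1 was 1.66 in wild type and 0.561 in TLR4ΔIEC, so the order of the concentrative and the equilibrative carrier was opposite in the 2 columns. The efflux pump Abcg2, whose substrates include urate, was at 59.2 and 46.4 (-0.41). Of the 4 counted transporter genes, Slc28a2 alone was at least 2-fold apart, and the median was -0.18, or 0.05 over the 3 others. A near relative of Slc28a2 lies 23803 bases away and is listed as Gm14085, now Slc28a2b, at 2.91 in wild type and 0.998 in TLR4ΔIEC. Reads that fit both could have been split between them, so the Slc28a2 values are uncertain to that extent.

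Of the purine breakdown enzymes in the set, Ada was lower, and Pnp and Xdh, which act after it, lay within 2-fold. Ada (chromosome 2, 163726584 to 163750239, minus strand), adenosine deaminase, turns adenosine and deoxyadenosine into inosine and deoxyinosine. It was the most highly covered of the 10 genes in wild type, at 108, and stood at 22.2 in TLR4ΔIEC. These averages rested on 234813 and 48463 bases of reads over 2182 bases, and the log2 ratio was -2.31, or 4.95-fold lower, the 12th lowest of all genes counted. Ada ranked 621st by coverage among all symbols in wild type and 2515th in TLR4ΔIEC.

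Pnp (chromosome 14, 50931082 to 50965237, plus strand), the phosphorylase that splits inosine and guanosine, was at 43.0 in wild type and 44.0 in TLR4ΔIEC, a log2 ratio of -0.03 that turned to between 0.02 and 0.07 with scaling to the total, to totals leaving out the 50 highest genes, or by quantiles. Its close relative Pnp2 lies within the annotated span of Pnp on the same strand, with 0 shared exon bases. Pnp2 was at 69.8 and 60.4 (-0.27), and the coverages of both summed to 113 and 104 (-0.18). Reads that fit both genes could have been split between them. Pnp also shares 718 exon bases on the same strand with Gm49342, which was not among the symbols listed for both genotypes. Counted as bases of reads, over recovered lengths of 2941 bases for Pnp and 1223 for Pnp2, both together came to 211757 and 203386, a scaled log2 ratio of -0.13. Xdh (chromosome 17, 73883895 to 73950196, minus strand), the xanthine dehydrogenase that ends purine breakdown in urate, was at 28.9 and 40.5 (0.41, 1.33-fold higher). Coverage of Ada was 2.50 times that of Pnp and 3.72 times that of Xdh in wild type, and 0.505 and 0.549 times in TLR4ΔIEC. Ada was thus the higher of each pair in wild type and the lower in TLR4ΔIEC.

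The rest of the purine breakdown list showed small ratios. Ada alone of its 9 counted genes was at least 2-fold lower, 0 were 2-fold higher, and the median was -0.03, or -0.05 over the 6 genes outside the set. Nt5c, a cytosolic nucleotidase, was at 84.3 in wild type and 75.1 in TLR4ΔIEC (-0.23). Gda, guanine deaminase, had the highest ratio of the list, at 27.5 and 44.8 (0.62), and was named after its value was seen.

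Adk (chromosome 14, 21052574 to 21448569, plus strand), adenosine kinase, is the salvage route that competes with Ada by turning adenosine back into AMP. Its coverage was 28.3 in wild type and 33.0 in TLR4ΔIEC, a log2 ratio of 0.15. Ada was at 3.80 times the coverage of Adk in wild type and 0.674 times in TLR4ΔIEC, so the order of the deaminase and the kinase was opposite in the 2 columns. Of 10 counted genes of nucleoside and base salvage, 0 were at least 2-fold apart in either direction, and their median was -0.15. The most covered were Aprt, which salvages adenine (157 and 121, -0.44), and Hprt, which salvages hypoxanthine and guanine (33.5 and 31.8, -0.14).

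Pyrimidine breakdown held the largest differences in both directions. Cda (chromosome 4, 138338424 to 138367992, minus strand), cytidine deaminase, turns cytidine into uridine and was at 99.5 in wild type and 16.3 in TLR4ΔIEC. With 80535 and 13147 bases of reads over 809 bases, its log2 ratio was -2.63, or 6.19-fold lower, the 7th lowest of the 8888 genes. Upp1 (chromosome 11, 9118103 to 9136170, plus strand), uridine phosphorylase, takes the next step from uridine to uracil. It was at 60.1 in wild type and 193 in TLR4ΔIEC, from 95601 and 307959 bases of reads over 1592 bases, a log2 ratio of 1.61 or 3.05-fold higher, the 32nd highest ratio. Upp1 became the most highly covered of the 10 genes, ranking 374th of all symbols in TLR4ΔIEC and 1049th in wild type.

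Those consecutive enzymes therefore stood in opposite order. Cda was at 1.66 times the coverage of Upp1 in wild type, and Upp1 was at 11.9 times that of Cda in TLR4ΔIEC. The shift between these ratios was -4.30 on the log2 scale and needs no scaling of the columns. Against Vil1, the enterocyte gene, Cda was at 0.248 in wild type and 0.0389 in TLR4ΔIEC, Ada at 0.268 and 0.0531, Nt5e at 0.0536 and 0.0121, and Upp1 at 0.149 and 0.463. Vil1 itself had a log2 ratio of -0.01. Dividing by it therefore gave back nearly the same ratios and is no separate support for them.

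Tymp (chromosome 15, 89371931 to 89377039, minus strand), thymidine phosphorylase, was at 15.7 in wild type and 6.57 in TLR4ΔIEC, a log2 ratio of -1.23. It shares 856 exon bases on the same strand with Sco2, a mitochondrial copper chaperone, whose coverage was 28.0 and 12.1 with a log2 ratio that also rounds to -1.23, and 535 bases with Ncaph2 on the opposite strand (24.6 and 24.5). The lengths behind the Tymp averages differed between the columns, and reads in the shared bases could belong to either gene, so the Tymp values are uncertain. Dpyd, which begins the reduction of uracil and thymine, was at 18.5 and 17.7 (-0.13). Of 7 counted genes of pyrimidine breakdown, Cda and Tymp were at least 2-fold lower and Upp1 higher, and the median was -0.14, close to that of the 4 genes outside the set (also -0.14).

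**Figure D2:**
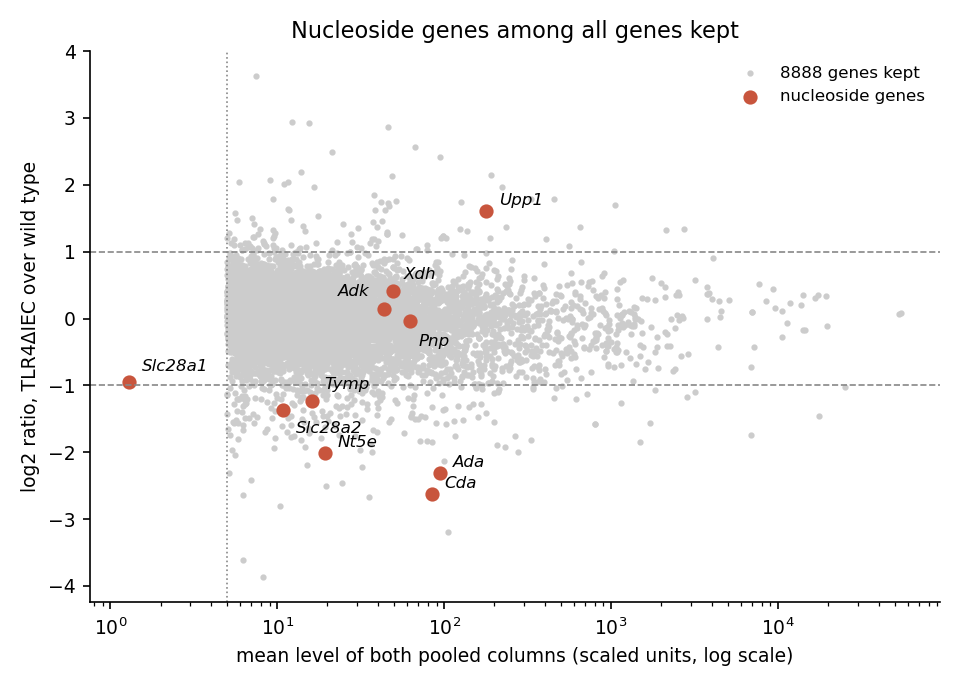
Log2 ratio of TLR4ΔIEC over wild type against the mean level of both pooled columns (scaled units, log scale) for the 8888 genes counted (grey) and the 10 nucleoside genes (red), with dashed lines at 2-fold and a dotted line at 5 units. Cda (-2.63) and Ada (-2.31) lie at the lower edge of genes of their level, Upp1 (1.61) near the upper edge, and Pnp, Adk and Xdh in the main body.

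Genes that make nucleotides anew lay mostly above 0. De novo purine synthesis had 7 of 9 counted genes above 0 and 2 below, beside 4684 above and 4204 below among all 8888 genes counted. The median of this list was 0.41, with 0 genes past 2-fold. Atic, which completes the purine ring, was at 12.0 in wild type and 22.1 in TLR4ΔIEC (0.78), Impdh2, the entry to guanine nucleotides, at 26.2 and 38.1 (0.46), and Paics, an earlier step, at 13.5 and 19.0 (0.41). Of the de novo pyrimidine genes, Umps (3.22 and 5.56, log2 ratio 0.62) and Ctps (3.74 and 6.06, 0.55) were counted, and Cad, the first enzyme, was below the level counted (2.24 and 3.37, 0.42). Umps reached that level only through the TLR4ΔIEC column. Dhodh, also below the level counted and named after its value was seen, was at 2.47 and 2.29 (-0.14). These values moved with the 6 proliferation markers, all above 0, whose summed coverage was 112 in wild type and 165 in TLR4ΔIEC. Their part in the synthesis genes' ratios was not tested.

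**Figure D3:**
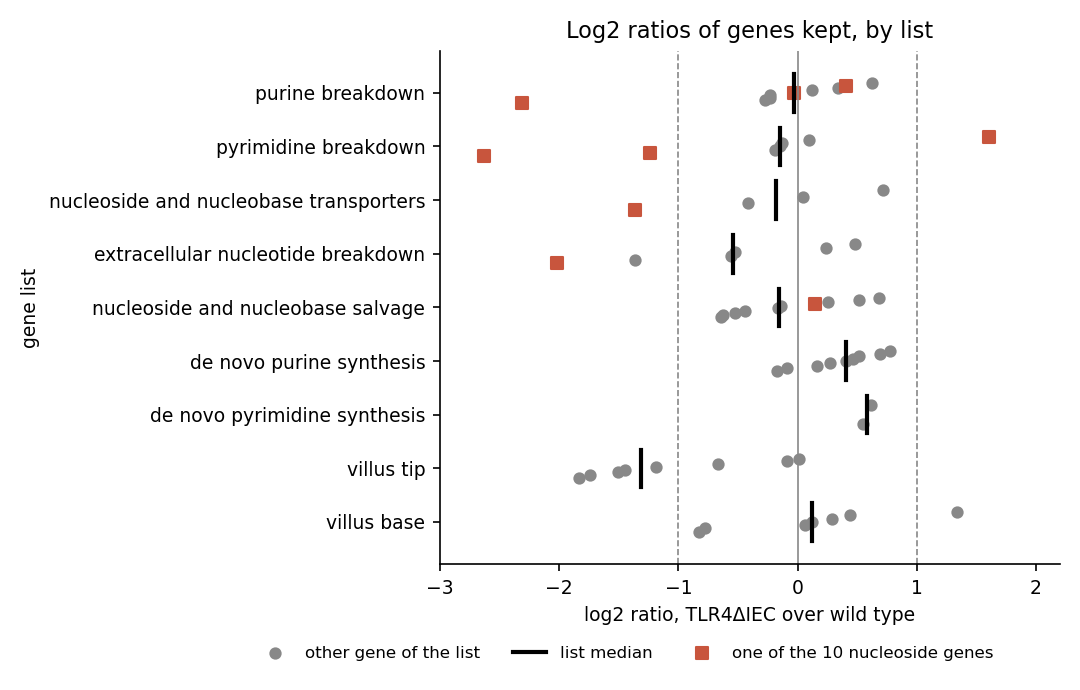
Log2 ratio of TLR4ΔIEC over wild type for each counted gene of 9 gene lists, with the 10-gene set as red squares where counted, other genes as grey circles, list medians as black bars and dashed lines at 2-fold. Ratios past 2-fold in the breakdown and transport lists belong to the set and to Alpi (-1.36), while the salvage and synthesis genes lie within 2-fold.

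Other genes known for their place on the villus were set beside these. Of 8 counted villus tip genes outside the set, 5 were at least 2-fold lower, 0 were higher, and the median was -1.32. The transcription factor Creb3l3 was at 76.9 in wild type and 22.1 in TLR4ΔIEC (-1.83), the apolipoprotein Apoa1 at 7193 and 2258 (-1.74), the apolipoprotein Apoa4 at 432 and 199 (-1.18), and the immediate early factors Junb (67.5 and 24.5, -1.51) and Fos (29.5 and 10.9, -1.45) were also lower. Fos and Junb are also in the immediate early list given further on, so these lists are not independent. Not all tip genes shared this: the keratin Krt20 was at 497 and 526 (0.01). Also within 2-fold were Cdkn1a at 54.1 and 53.1 (-0.09) and Klf4 at 53.3 and 34.8 (-0.67), both named after their values were seen. Of 7 villus base genes, 1 was at least 2-fold higher, the lectin Reg3g (1055 and 2805, 1.34), and 0 were lower, with 5 ratios above 0, 2 below and a list median of 0.12. The other two most covered genes were above 0, the lectin Reg3b at 5443 and 7735 (0.44) and Lypd8 at 2488 and 3182 (0.29). The pair below 0, named after their values were seen, were the chemokine Ccl25 at 354 and 209 (-0.82) and the lectin Reg3a at 44.3 and 26.9 (-0.77). Both lists were written with these ratios known, and nothing is called particular to them.

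General enterocyte genes lay within 2-fold apart from Alpi, with 8 genes counted, 6 of them below 0, a median of -0.05 whose sign changed between settings, and summed coverages of 4621 and 4502 in the wild type and TLR4ΔIEC columns. Ileal genes were mostly below 0. Of 7 counted, 0 were past 2-fold and 6 lay below 0, beside 4204 of all 8888 genes counted. The median of the ileal genes was -0.56, with sums of 11356 and 10489, most of it Fabp6. Lowest among them was Amn, a part of the vitamin B12 receptor, at 24.3 and 12.9 (-0.94), and its partner in that receptor, Cubn, was at 49.8 and 33.8 (-0.62). Both were named after their values were seen. Genes of the upper small intestine summed to 139 and 27.0 over 6 genes, and 1 of 2 counted was at least 2-fold lower. This was the fatty acid binding protein Fabp1, which made up 131 and 14.3 of these sums (-3.20). The other counted gene, Slc40a1, lay above 0, at 6.78 and 10.4 (0.51), so the list has no shared direction. Colon genes summed to 91.4 and 52.0 over 5, and 1 of 2 counted was at least 2-fold lower, Mettl7b, at 70.2 and 25.6 (-1.50). The other, Slc26a3, was at 18.1 and 22.5 (0.24). The part of the position along the gut in the ratios of the 10 genes was not tested. Markers of other cells moved in both directions. Adipocyte genes were lower, with 4 of 4 counted genes past 2-fold and sums over 5 genes of 44.1 and 14.6 in the same order. Adipoq (9.62 and 3.42 units) and Cfd (13.4 and 3.44 units) reached the level counted only through the wild type column, so the filter had a part in this count. Plin1, below the level counted, was at 0.824 and 0.436 (-0.46). Immediate early genes, which respond to tissue handling, had 3 of 5 counted genes at least 2-fold lower and summed to 167 and 80.2 over 7 genes. Among the lower ones were Fos and Junb, already counted in the villus tip list. T cell genes summed to 31.5 and 55.1 over 8 genes, with 1 of 5 counted at least 2-fold higher. That gene, Lck, reached the level counted only through the TLR4ΔIEC column (4.24 units in wild type and 9.89 in TLR4ΔIEC). B and plasma cell genes summed to 197 and 583 over 6 genes, with 2 of 4 higher, and Igj, the joining chain of secreted antibodies, made up 138 and 503 of these sums. The B cell gene Ms4a1, below the level counted, was at 2.84 and 0.703. Macrophage genes summed to 146 and 209 over 7, with 0 of 4 past 2-fold, endothelial genes to 14.0 and 19.4 over 5, and fibroblast genes to 70.8 and 107 over 5. Red blood cell genes were higher in 4 of 4 counted, at 128 and 312 over 5. None of the genes summed was at 0 in either column, but only symbols listed in both columns could enter the sums. Lymphocytes, macrophages and endothelium also express several of the 10 genes, and the part of these cells in the ratios of Upp1, Ada, Nt5e and the others was not tested.

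**Figure D4:**
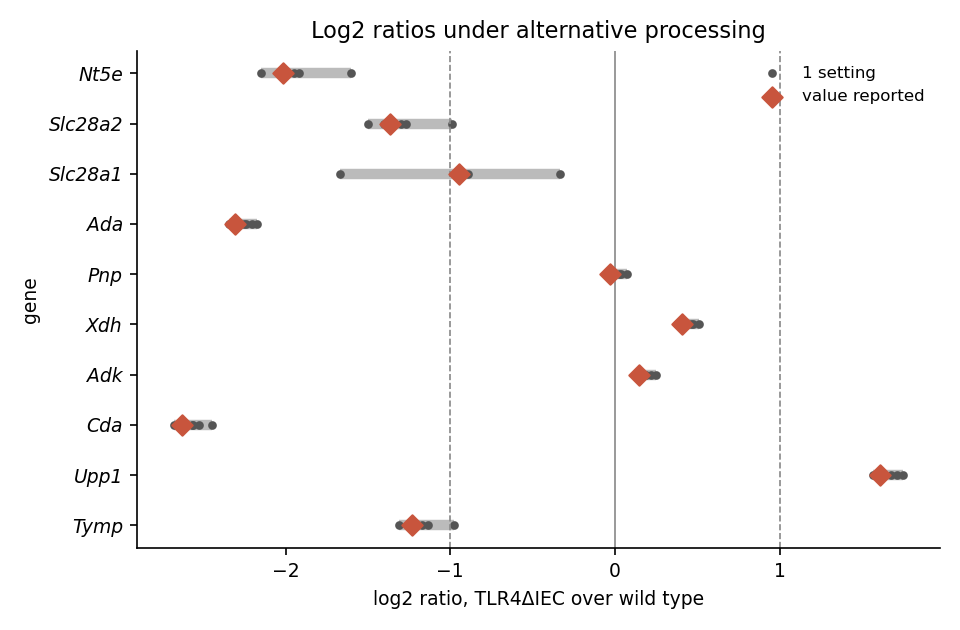
Log2 ratio of TLR4ΔIEC over wild type for each of the 10 genes under each processing setting that gave a value (dots), with the range as a grey bar, the reported value as a diamond and dashed lines at 2-fold. Ada stays between -2.34 and -2.17, Cda between -2.68 and -2.44 and Upp1 between 1.57 and 1.75, while Slc28a1 spreads from -1.67 to -0.34.

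The plot of ratios by setting shows how far each gene moved. Ada, Cda, Nt5e and Upp1 stayed past 2-fold in every setting in which they were counted. Tymp and Slc28a2, the counted genes nearest to 2-fold, came to -0.98 and -0.99 with 5 units added to each value, just inside 2-fold. Xdh stayed between 0.38 and 0.51 and Adk between 0.14 and 0.25.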

How the data were processed

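Ileum RNA of 3 wild type and 3 TLR4ΔIEC mice was depleted of ribosomal RNA, given spike-in RNA, fragmented and made into strand-specific Ion Torrent libraries, per the labels' protocols. The submitters' processing notes name TopHat2 2.0.10, Bowtie2 2.1.0 and build mm10, without roles. Per the file headers, the authors deposited the average coverage of each RefSeq entry, a signal for which no library scale is stated. The tool behind it, the read length and any use of strand were not given in the sources used here, and therefore no counting interval is given.

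Both columns listed 22001 entries, giving 21950 symbols, and a repeated symbol was taken from its most covered entry. Entries in a single column (723 and 686) were left out. Each gene of the set had 1 entry. A coverage that equals whole bases over a whole length (tolerance 1e-11, up to 30000) gave the length and bases of reads where both columns fit a common length, which held for 8 of the 10 genes and 80.5% of those counted. Where the true length is a multiple of the recovered one, the bases are too low.

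The 10 genes, 10 pathway lists and 13 marker lists were chosen with earlier results of these data known. Named were all 10 genes and, per pathway list, genes past 2-fold or else its 3 most covered. Markers were summed. Single marker genes, Entpd1, Slc28a3, Gda, Dhodh, Cdkn1a, Klf4, Ccl25, Reg3a, Adora1 and neighbouring genes were named outside this rule. With 1 value per genotype no measure of likeness between genes could be had. The 11 other settings are 4 scalings, 2 added values, 3 filters, means over entries, and genes of common length only. Coordinates are from GENCODE vM21 (GRCm38). The scaling and the log2 ratios were tested on simulated data. The recovery of lengths, the lists and the motif search were not. Python 3.11.15, numpy 2.4.6, pandas 2.3.3 and matplotlib 3.10.9 were used.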

Additional observations from a re-analysis of the deposited data

How the results depend on the processing

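The number of genes of the set at least 2-fold higher was 1 in all 11 other settings. The number at least 2-fold lower was 5 except with 5 units added (3), with a filter at 20 units (2) and among genes of common length (4, without Tymp). A filter at 20 units leaves 6 of the 10 genes and drops Tymp, Nt5e and Slc28a2, which puts the median of the set at 0.058 in place of -1.23. Genes of common length had a set median of -0.70 and a transporter list median of -0.89. Over all genes, the numbers lower and higher were 146 and 65 with 5 units added, 395 and 222 with no filter, 380 and 206 with a filter at 1 unit, and 130 and 58 with a filter at 20 units. The median of all genes lay between -0.03 and 0.12. The medians of purine breakdown (-0.13 to 0.07) and of transporters (-0.89 to 0.05) changed sign between settings, so neither has a direction. The other pathway list medians kept their sign in every setting that gave one. Of the marker list medians, 4 changed sign: enterocyte (-0.05 to 0.06), B and plasma cell (-0.0020 with no filter or a filter at 1 unit), upper small intestine (0.099 with no filter, 0.51 with a filter at 1 unit and -3.20 with one at 20) and colon (0.045 with no filter and 0.18 with a filter at 1 unit). The lists of upper small intestine and colon had 2 counted genes each, and weaker genes enter at a lower filter. Leaving out a mouse was not possible with pooled columns. Weak coverage limits Slc28a1 most, with a log2 ratio of -1.67 when 0.1 units were added and -0.34 with 5.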

Other observations

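Receptors for extracellular adenosine, the product of Nt5e and the substrate of Ada, were all weakly covered, and none of the 4 reached the level counted. Adora2a was at 1.20 in wild type and 1.16 in TLR4ΔIEC, Adora2b at 0.767 and 0.195, and Adora3 at 0.361 and 0.613. Adora1 was at 0.228 and 0.376. Their summed coverage was 2.56 and 2.34.

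The stretch of chromosome 15 around Tymp held a further gene with a low ratio, named after its value was seen. Odf3b, 409 bases from Tymp on the same strand (89377449 to 89379282), was at 6.54 in wild type and 1.46 in TLR4ΔIEC, a log2 ratio of -1.80, beside -1.23 for both Tymp and Sco2.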
